A study of Mus musculus with 6 samples.

Results

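Integrins and numbered cadherins, the main receptors by which a cell holds on to matrix and to its neighbours, were examined in mouse Neuro2A (N2A) neuroblastoma cells after silencing of the circular RNA circCpsf6. Members were the protein-coding genes named Itga or Itgb followed by a number or letter, and Cdh followed by a number. The rule found 49 of the 55385 genes in the deposited table, 26 integrins and 23 cadherins, and used no measured value. The cells, an established line labelled as neuroblasts from brain, were transfected with si-circCpsf6 (n = 3 libraries) or with si-NC, the comparison small interfering RNA (siRNA, n = 3), each at 100 nM. Each library gave 1 FPKM value per gene (mapped fragments relative to transcript length and library size). Whether the 3 libraries of a group came from separate cultures is not stated, so a p-value here speaks of library spread alone, which may be technical.

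An integrin is a pair of 1 alpha and 1 beta subunit that spans the membrane. Outside the cell it binds matrix proteins such as laminin, collagen, fibronectin and vitronectin, and inside it couples to actin through talin, kindlin and vinculin. Classical cadherins bind the same cadherin on the next cell in the presence of calcium and are tied to actin by catenins. In cells of the neural crest lineage, from which neuroblastoma comes, both families act in migration and in the gathering of cells into ganglia. The rule on names also takes in 5 cadherins that are not classical: Cdh13, which lacks a cytoplasmic tail, Cdh16, Cdh17, Cdh23 and Cdh26. The label of classical cadherins therefore covers 18 of the 23 genes.

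N2A cells carried mRNA of few of these receptors. Taking a 6-library mean of 1 FPKM or more as expressed, 14 of the 49 genes were expressed: 6 of 18 alpha subunits, 4 of 8 beta subunits and 4 of 23 cadherins. Another 29 had some value above 0, and 6 were listed at 0 in all 6 libraries, all of them cadherins (Cdh4, Cdh7, Cdh9, Cdh10, Cdh19 and Cdh20). Itgb1, the beta 1 subunit that pairs with most alpha subunits, stood far above the rest, at 186 ± 5.24 FPKM in si-NC (mean ± SD, n = 3), a level above 98.4% to 98.6% of tested genes. It was followed in si-NC by Itga6 (23.3 ± 5.55 FPKM) and Itgb5 (18.5 ± 2.54 FPKM), whose si-NC values overlapped. Next came Itga3 (8.73 ± 2.05 FPKM) and Itga1 (6.89 ± 2.43 FPKM), which overlapped as well. In si-NC Cdh22 was the highest cadherin, at 4.38 ± 1.06 FPKM. With si-circCpsf6 Cdh2 (2.51 FPKM on average) and Cdh22 (2.38 FPKM) overlapped.

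**Figure D1:**
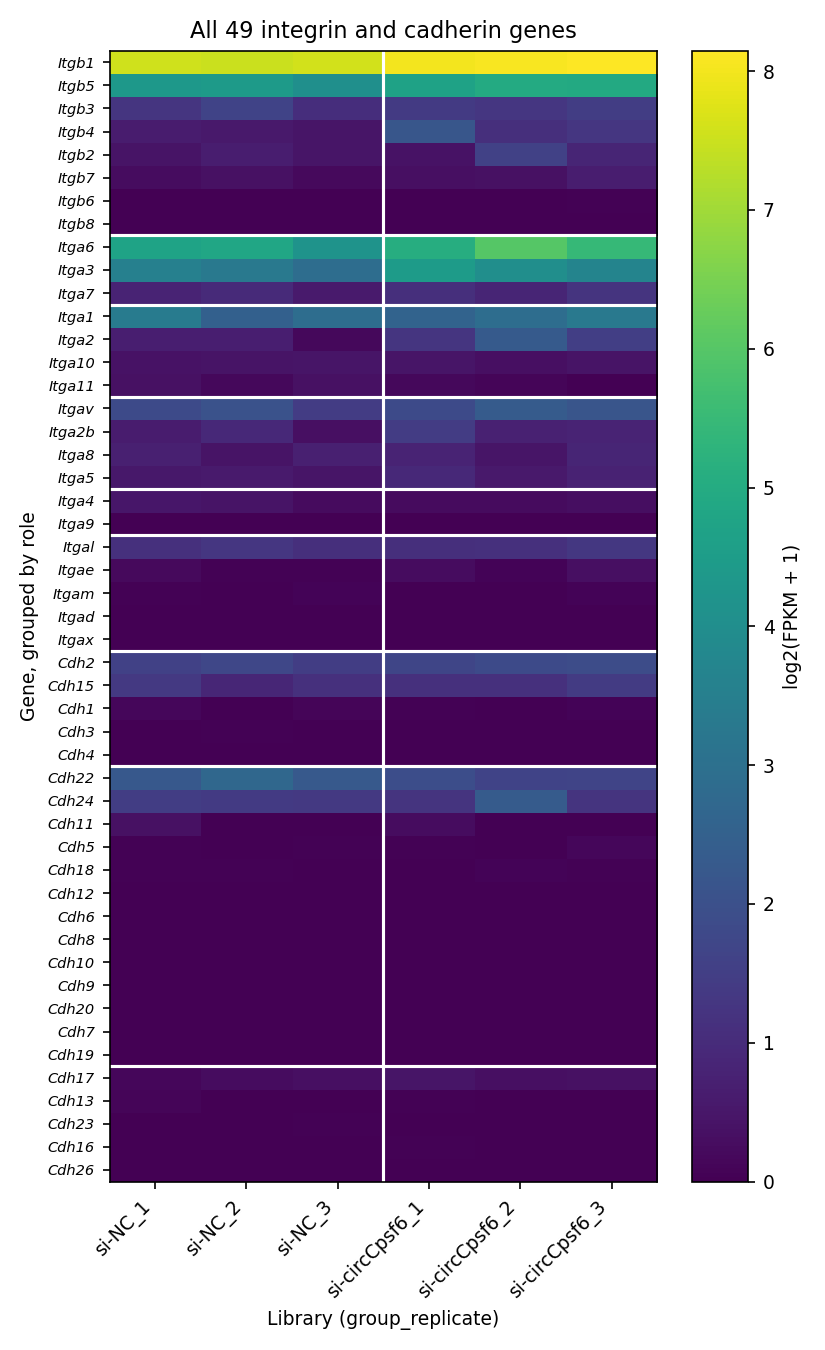
Level of each of the 49 integrin and cadherin genes as log2(FPKM + 1), colour scale at right, in the 6 libraries (columns, group and replicate), with genes in rows grouped by role. Itgb1 is the brightest row in every library, and most cadherin rows are at or near 0.

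The sequence before the start of transcription is shown for Itgb1, Itgb5 and Itga2, members whose values in the groups did not overlap (described further on). Each is the RefSeq (GRCm38.p6) stretch of 250 bases that ends just before the annotated start, written 5′ to 3′ on the gene's strand. Itgb1 is at chr8:128685404-128685653 (plus strand), Itgb5 at chr16:33829415-33829664 (plus strand) and Itga2 at chr13:114932101-114932350 (minus strand). Capitals mark matches on either strand to GGGCGG (the GC box) or GGAATG (the core of TEAD sites).
Itgb1: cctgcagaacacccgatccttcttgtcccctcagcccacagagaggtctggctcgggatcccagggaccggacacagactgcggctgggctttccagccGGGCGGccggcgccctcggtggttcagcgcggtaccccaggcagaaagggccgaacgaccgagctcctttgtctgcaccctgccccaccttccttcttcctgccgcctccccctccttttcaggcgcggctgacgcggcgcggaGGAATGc
Itgb5: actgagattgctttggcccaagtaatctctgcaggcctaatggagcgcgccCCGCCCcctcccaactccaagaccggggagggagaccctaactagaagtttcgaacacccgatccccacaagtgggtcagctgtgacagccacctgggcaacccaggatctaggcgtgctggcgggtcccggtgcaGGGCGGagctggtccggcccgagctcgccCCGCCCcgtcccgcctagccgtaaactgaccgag
Itga2: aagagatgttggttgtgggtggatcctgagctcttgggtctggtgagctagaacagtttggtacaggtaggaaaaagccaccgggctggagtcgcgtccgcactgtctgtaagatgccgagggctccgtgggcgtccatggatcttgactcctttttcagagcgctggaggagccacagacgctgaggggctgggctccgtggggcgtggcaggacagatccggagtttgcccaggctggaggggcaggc
Itgb1 held 1 GGGCGG and 1 GGAATG, Itgb5 held 3 GGGCGG, and Itga2 held neither. RefSeq had an entry for 9 expressed members. In the first-listed stretch of each, 6 held GGGCGG, against 32.7% of all 32851 promoter stretches of this length (several for some genes), and 1 held GGAATG, against 12.6%. None of these 9 first-listed stretches held TATAAA (12.4% of all), CCAAT (33.8%) or TGANTCA (6.7%), the TATA box, the CCAAT box and the AP-1 motif with any middle base. Itga3 alone had a second stretch, at chr11:95069199-95069448 (minus strand), which held 1 CCAAT and 1 GGGCGG. The first-listed stretches of these 9 genes were 57.6% to 77.6% G or C, beside a median of 52.4% over all stretches. No binding was measured, so these matches describe the letters alone.

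Silencing of the circle was then compared with the control siRNA, to ask which of these receptors differed. The 14 expressed members were tested among the 12974 genes that reached that mean, by limma on log2(FPKM + 1) with Benjamini-Hochberg adjustment over all of them. None of the 14 passed at an adjusted p under 0.05, where 0.902% of all tested genes were called higher and 0.786% lower. At an unadjusted p under 0.05 by limma, 6 members were higher and 1 was lower, beside 10.2% and 10.1% of tested genes. In the same 7 members the 3 si-circCpsf6 values did not overlap the 3 si-NC values: Itga2, Itga3, Itga6, Itgb1, Itgb4 and Itgb5 were higher in si-circCpsf6 and Cdh22 was lower. Over all tested genes 12.8% were apart in the higher and 14.0% in the lower direction. Itga2 and Itgb4 had a mean under 1 FPKM with si-NC and so entered the test through their si-circCpsf6 values. Of the 12 members whose si-NC mean reached 1 FPKM, 4 were apart and higher and 1 was apart and lower. None of the 35 members under the filter had groups that did not overlap. The median log2 fold change was 0.27 over the 14 tested members (12 above 0) and -0.02 over all tested genes (47.2% above 0). Over the 12 members with a mean of at least 1 FPKM in both groups it was 0.20 (10 above 0), and over all 12431 such genes it was -0.02 (46.7% above 0). An exact permutation test of 3 against 3 libraries cannot give a p under 0.1, so none was run on single genes.

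**Figure D2:**
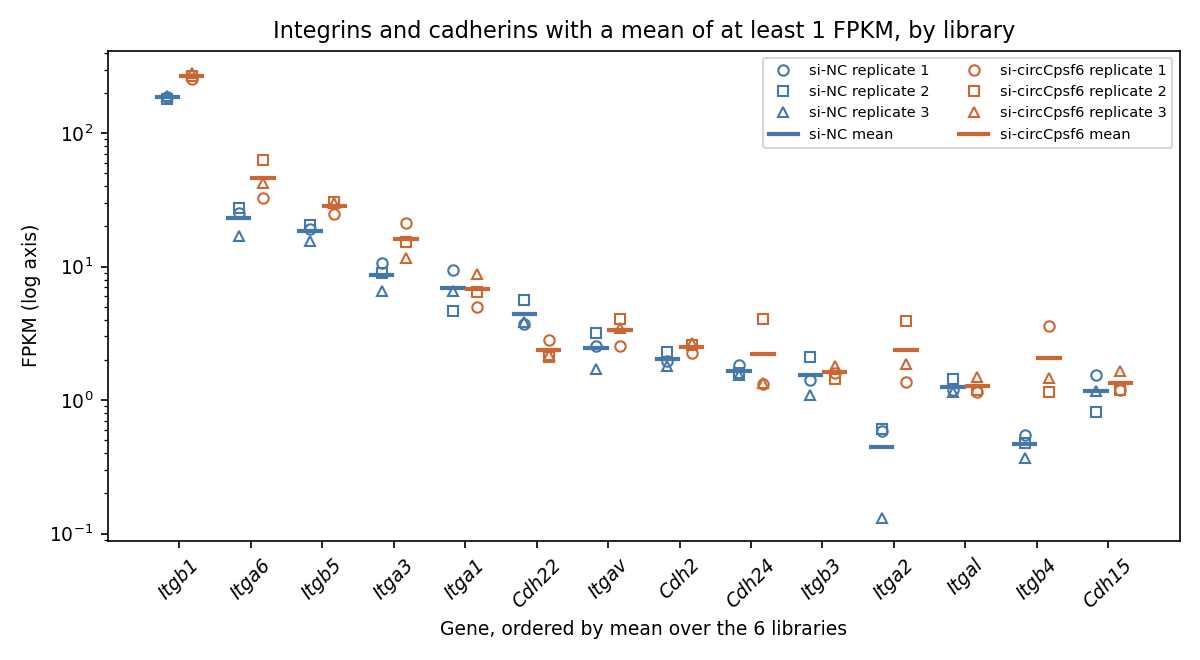
FPKM (log axis) of the 14 expressed integrin and cadherin genes, in order of their mean, with 1 symbol per library and a bar at each group's mean. The groups do not overlap in Itgb1, Itga6, Itgb5, Itga3, Itga2 and Itgb4 (si-circCpsf6 higher) and in Cdh22 (si-circCpsf6 lower).

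**Figure D3:**
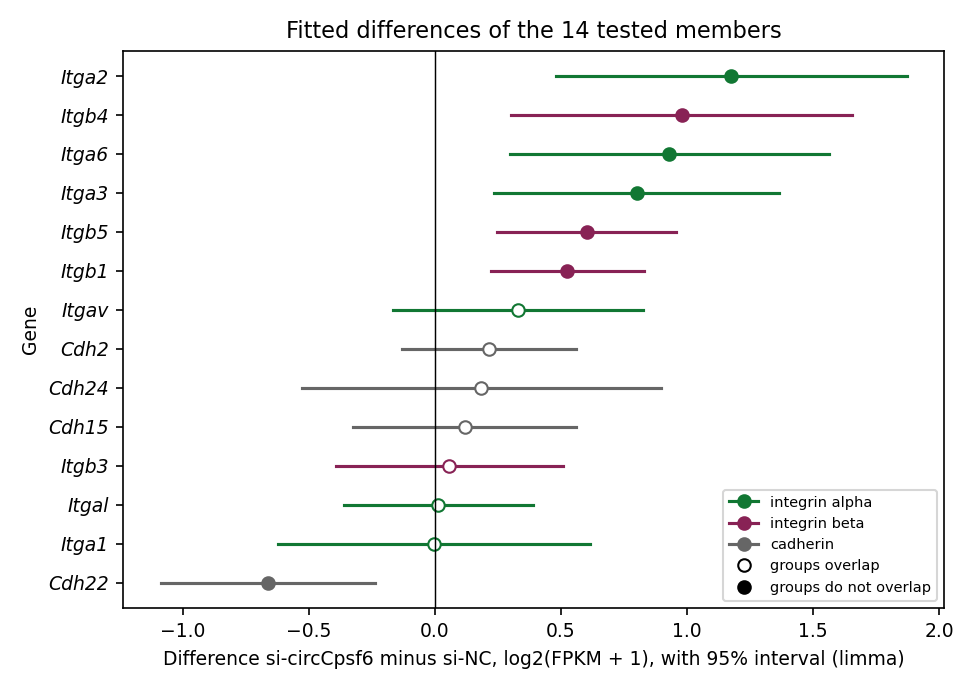
Difference between si-circCpsf6 and si-NC on the log2(FPKM + 1) scale with its 95% interval (limma, n = 3 each, unadjusted) for the 14 tested members, filled where the groups do not overlap. The 6 integrins at the top lie wholly above 0 and Cdh22 wholly below, though no adjusted p was under 0.05.

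Among beta subunits, the partners shared by many alpha chains, Itgb1 (ENSMUSG00000025809, chromosome 8, 128685654 to 128733200, GRCm38) read 187, 180 and 191 FPKM with si-NC and 257, 266 and 283 FPKM with si-circCpsf6. All si-circCpsf6 libraries were above all si-NC libraries, and the spread within each group was small beside the gap. Its mean was 1.44 times as high in si-circCpsf6, a log2 fold change of 0.53 ± 0.13 (SE, n = 3 each; limma adjusted p = 0.0868). Itgb5, which pairs with alpha v to bind vitronectin (chromosome 16, 33829665 to 33949338), read 19.1, 20.6 and 15.7 FPKM in si-NC. In si-circCpsf6 it read 24.7, 30.7 and 30.1 FPKM, each above every si-NC value. Its mean was 1.54 times as high (log2 fold change 0.60 ± 0.15, limma adjusted p = 0.0919). Itgb4, the partner of alpha 6 in hemidesmosomes (chromosome 11, 115974709 to 116008412), read 0.55, 0.48 and 0.37 FPKM with si-NC and 3.57, 1.14 and 1.46 FPKM with si-circCpsf6. The highest value, in si-circCpsf6 replicate 1, was over every other library, and the groups did not overlap. The mean was 4.41 times as high (log2 fold change 0.98 ± 0.29, limma adjusted p = 0.123), and without si-circCpsf6 replicate 1 the log2 fold change was 0.65. Itgb3, which binds vitronectin and fibrinogen with alpha v or alpha IIb, read 1.54 ± 0.53 and 1.61 ± 0.19 FPKM with si-NC and si-circCpsf6, and its groups overlapped (log2 fold change 0.06, 95% interval -0.39 to 0.51).

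The other 4 beta subunits were under 1 FPKM on average. Itgb2, the leukocyte beta chain, read 0.36, 0.58 and 0.38 FPKM with si-NC and 0.31, 1.96 and 0.78 FPKM with si-circCpsf6, with overlap between the groups. Itgb7 read at most 0.57 FPKM in any library. Itgb6, known from epithelia, and Itgb8 were listed at 0 in all si-NC libraries and at no more than 0.04 and 0.01 FPKM with si-circCpsf6.

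Itga3 and Itga6, 2 of the 3 laminin-binding alpha subunits, were tested, and neither passed. Itga6 (chromosome 2, 71745616 to 71858416) read 25.4, 27.6 and 17.1 FPKM with si-NC and 32.5, 63.5 and 42.6 FPKM with si-circCpsf6. The lowest si-circCpsf6 library was above the highest si-NC library, but the range within si-circCpsf6 was wider than the gap between the group means. The mean was 1.98 times as high (log2 fold change 0.93 ± 0.27, limma adjusted p = 0.12). Itga3 (chromosome 11, 95044474 to 95076801) read 10.7, 8.91 and 6.60 FPKM with si-NC and 21.3, 15.4 and 11.7 FPKM with si-circCpsf6. Its groups did not overlap, though only by the gap between 10.7 and 11.7 FPKM. The mean was 1.85 times as high (log2 fold change 0.80 ± 0.24, limma adjusted p = 0.130). The libraries ranked differently for the pair: Itga3 was highest in si-circCpsf6 replicate 1, where Itga6 was lowest of its group. In that library Itga3 made up 30.8% of the summed FPKM of all alpha subunits, against 15.7% and 15.8% in the other si-circCpsf6 libraries and 17.8% to 20.0% in si-NC. Itga7, the third laminin-binding chain, known from muscle, read 0.737 ± 0.215 FPKM with si-NC and 1.10 ± 0.29 FPKM with si-circCpsf6, with overlapping groups.

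The collagen-binding alpha subunits did not share a pattern. Itga2 (chromosome 13, 114833081 to 114932100), which with beta 1 binds collagen in platelets and epithelia, read 0.59, 0.61 and 0.13 FPKM with si-NC and 1.37, 3.90 and 1.87 FPKM with si-circCpsf6. Every si-circCpsf6 value was above the highest si-NC value, and replicate 2 was the highest. This was the largest fitted difference of the 14 members, with a mean 5.37 times as high (log2 fold change 1.18 ± 0.30, limma adjusted p = 0.0919). Itga1, which binds collagen IV, read 9.48, 4.66 and 6.52 FPKM with si-NC and 5.0, 6.5 and 8.86 FPKM with si-circCpsf6. Its groups overlapped over most of their range, and the interval of the log2 fold change was -0.62 to 0.62. Itga1 overlaps Pelo, a gene on the same strand that read 34.4 to 49.6 FPKM with si-NC and 27.3 to 36.2 FPKM with si-circCpsf6, so reads of Pelo could be counted in Itga1. Itga10, known from cartilage, stayed between 0.26 and 0.39 FPKM in all libraries. Itga11, a collagen receptor of fibroblasts, read 0.30, 0.14 and 0.30 FPKM with si-NC and 0.14, 0.08 and 0.01 FPKM with si-circCpsf6, with the groups meeting at 0.14 FPKM.

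Of the alpha subunits that recognise the RGD motif of fibronectin and vitronectin, only Itgav was expressed. It read 2.53, 3.18 and 1.71 FPKM with si-NC and 2.56, 4.04 and 3.44 FPKM with si-circCpsf6. The groups overlapped, with a log2 fold change of 0.33 (95% interval -0.16 to 0.83, limma adjusted p = 0.432). Itga5, the main fibronectin receptor chain, read 0.44 ± 0.066 FPKM with si-NC and 0.707 ± 0.225 FPKM with si-circCpsf6. Itga8 and Itga2b, the platelet chain, likewise had means under 1 FPKM over the 6 libraries and overlapping groups. Itga4 and Itga9, which bind VCAM-1 and matrix proteins such as tenascin, read at most 0.42 and 0.02 FPKM in any library.

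Of the 5 leukocyte alpha chains, Itgal alone was expressed. This chain of LFA-1 read 1.25 ± 0.155 FPKM with si-NC and 1.28 ± 0.195 FPKM with si-circCpsf6 (log2 fold change 0.01, 95% interval -0.36 to 0.39). Itgam, Itgax, Itgad and Itgae read at most 0.26 FPKM. The leukocyte marker Ptprc was listed at 0 in 4 libraries and at 0.02 FPKM in the others, and none of the 7 leukocyte markers reached a mean of 1 FPKM.

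Summed over genes, alpha subunits read 53.5, 50.02 and 36.0 FPKM with si-NC and 69.4, 97.5 and 74.4 FPKM with si-circCpsf6. Beta subunits summed to 208, 205 and 208 FPKM with si-NC and to 287, 302 and 317 FPKM with si-circCpsf6. Both sums were higher in every si-circCpsf6 library, while the alpha sum stayed at 17.2% to 25.7% of the beta sum with si-NC and 23.5% to 32.3% in si-circCpsf6. Itgb1 made up 88.2% to 91.5% of the beta sum over the 6 libraries. Leaving Itga3 and Itga6 out, the other alpha subunits summed to 14.4 ± 2.66 FPKM with si-NC and 18.1 ± 2.36 FPKM with si-circCpsf6, with overlapping values. Itga3 and Itga6 thus held most of the gap in the alpha sum. No p is given for these sums, since their members are the genes described above.

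**Figure D4:**
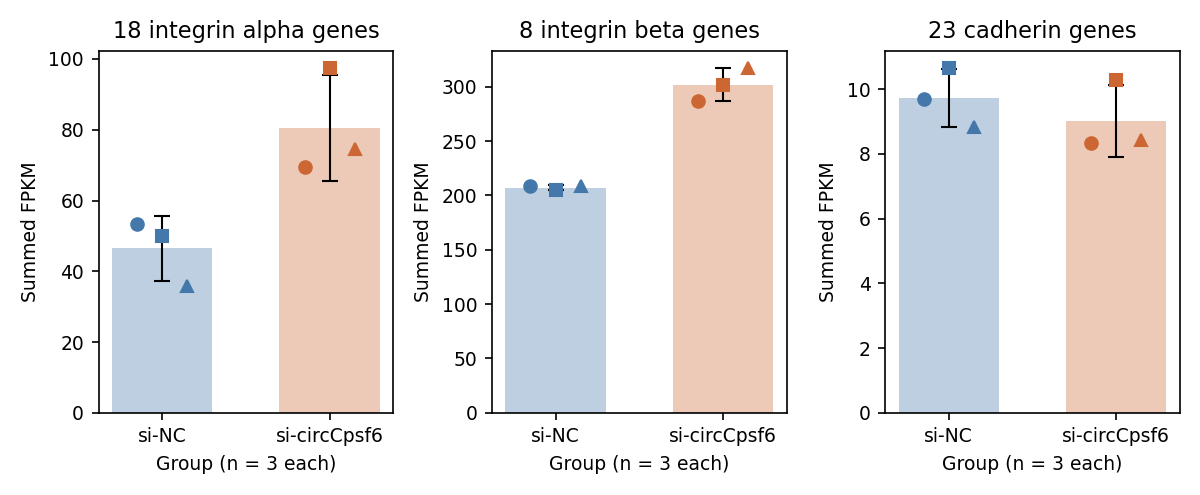
Summed FPKM of the 18 integrin alpha, 8 integrin beta and 23 cadherin genes (bars: group mean, error bars: SD, n = 3 each; circle, square and triangle: replicates 1, 2 and 3). Alpha and beta sums are higher in all si-circCpsf6 libraries, and cadherin sums overlap.

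Numbered cadherin mRNA was sparse in both groups. All 23 genes summed to 9.72 ± 0.911 FPKM with si-NC and 9.01 ± 1.10 FPKM with si-circCpsf6, with overlapping values. Cdh22, a type II cadherin known from brain (chromosome 2, 165111507 to 165234853), read 3.70, 5.61 and 3.84 FPKM with si-NC and 2.82, 2.12 and 2.19 FPKM with si-circCpsf6. It was the only member whose si-circCpsf6 values all lay below its si-NC values. Its mean was 0.542 times that of si-NC (log2 fold change -0.66 ± 0.18, limma adjusted p = 0.107). Its share of the cadherin sum was 38.2% to 52.7% with si-NC and 20.6% to 33.8% in si-circCpsf6. Cdh24, another type II cadherin, read 1.82, 1.59 and 1.55 FPKM with si-NC and 1.32, 4.04 and 1.34 FPKM with si-circCpsf6. A single library, si-circCpsf6 replicate 2, stood above the rest, and the others were lower in si-circCpsf6 than in si-NC. The log2 fold change was 0.18 with all libraries and -0.19 without that library.

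Of the type I cadherins, Cdh2, the N-cadherin of neural cells (chromosome 18, 16588877 to 16809246), read 1.97, 2.31 and 1.8 FPKM with si-NC and 2.25, 2.58 and 2.70 FPKM with si-circCpsf6. The groups overlapped between 2.25 and 2.31 FPKM (log2 fold change 0.22, 95% interval -0.13 to 0.56, limma adjusted p = 0.466). Cdh15, the M-cadherin of muscle, read 1.17 ± 0.355 and 1.35 ± 0.263 FPKM, with overlapping groups. Cdh1, the E-cadherin of epithelia, did not exceed 0.10 FPKM in any library and Cdh3, P-cadherin, did not exceed 0.04 FPKM. Cdh5, the VE-cadherin of endothelium, read at most 0.10 FPKM, and Cdh11, known from mesenchyme, read at most 0.30 FPKM. Among cadherins that are not classical, Cdh17 was the highest, at 0.11 to 0.37 FPKM.

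The authors' deposited table gave q-values under 0.05 for 4 of the 14 tested members, where 5.51% of tested genes had one. In the authors' deposited table these were Itga2 and Itgb4 (q listed as 0.00), Itga6 (0.01) and Itga3 (0.02), all higher in si-circCpsf6. Itga2 and Itgb4 were among the tested members only through their si-circCpsf6 values, so the count of 4 leans on the group where they were high. The authors' deposited table listed Itgb5 at a q of 0.05 and both Itgb1 and Cdh22 at 0.10. It flagged 3 members as significant, Itga2, Itgb4 and Itga11, among 954 flagged genes (1.72% of all rows). In the authors' deposited table every flagged gene had a p of at most 0.05 and a log2 fold change of 1 or more in size. Itga11, lower in si-circCpsf6, had a p of 0.04 and a q of 0.24 in the authors' deposited table, at levels of 0.30 FPKM or less. No label or header names the test behind these values.

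Proteins that link integrins to actin or sit beside them in the membrane were read from a list of 30 genes, of which 25 were tested. None passed by limma, and the median log2 fold change was -0.0023. At an unadjusted p under 0.05 by limma 4 were higher and 1 lower, beside 10.2% and 10.1% of tested genes. Groups stood apart in 6 that were higher and 2 that were lower, where 12.8% and 14.0% of tested genes were apart. The lower ones were Kank2 and, named after its values were seen, Ilk. Ilk read 40.0 ± 3.45 and 28.0 ± 9.46 FPKM with si-NC and si-circCpsf6 (limma adjusted p = 0.273). Kank2, which binds talin at the rim of adhesions, read 3.52, 3.06 and 2.86 FPKM with si-NC and 1.77, 1.8 and 1.73 FPKM with si-circCpsf6 (limma adjusted p = 0.0838). Vcl, vinculin, which joins talin to actin, read 8.37, 7.20 and 6.15 FPKM with si-NC and 12.2, 10.5 and 16.0 FPKM with si-circCpsf6 (limma adjusted p = 0.0858). The groups did not overlap in either gene. The others higher at an unadjusted p under 0.05 were Parvg, Tln1 and Fermt2, named after their values were seen. Parvg, a parvin known from blood cells, read 1.22, 1.07 and 0.80 FPKM with si-NC and 10.97, 2.22 and 2.72 FPKM with si-circCpsf6 (limma adjusted p = 0.16). Tln1 and Fermt2 are the talin and kindlin that bind beta tails. Tln1 read 19.0 ± 1.14 and 23.7 ± 1.15 FPKM and Fermt2 20.8 ± 1.5 and 29.1 ± 2.29 FPKM with si-NC and si-circCpsf6, with groups apart in both (limma adjusted p = 0.201 and 0.0997). The adhesion kinase gene Ptk2, named for its role, read 11.7 ± 0.76 and 11.7 ± 2.17 FPKM.

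Among 13 cadherin partners, 11 were tested, and Jup passed, where 0.902% of all tested genes were called higher and 0.786% lower. At an unadjusted p under 0.05 by limma, 4 were higher and none lower, beside 10.2% and 10.1% of tested genes. In the same 4 the groups did not overlap, where 12.8% of tested genes were apart and higher. Jup, plakoglobin, a catenin of adherens junctions and desmosomes, read 4.70, 5.79 and 4.31 FPKM with si-NC and 17.7, 12.6 and 11.02 FPKM with si-circCpsf6. Every si-circCpsf6 value was well above the highest si-NC value. Jup rose by 1.30 ± 0.19 on the log2 scale (limma adjusted p = 0.0328). It was not called with no filter (limma adjusted p = 0.0961) or with the replicate number as a block (limma adjusted p = 0.0615). It was also not called without si-NC replicate 1, 2 or 3 (adjusted p = 0.0948, 0.0662 and 0.152) or si-circCpsf6 replicate 2 or 3 (0.0679 and 0.0691). Over all limma alternatives its adjusted p ran from 0.0178 to 0.152. Calls over all tested genes fell too, from 117 higher and 102 lower to 6 and 5 with the block. The other 3 were named after their values were seen. Nectin1, an adhesion molecule of adherens junctions, read 3.01, 2.46 and 2.84 FPKM with si-NC and 5.89, 4.59 and 4.25 FPKM with si-circCpsf6 (limma adjusted p = 0.0858). Ctnna2, alpha-N-catenin of neurons, read 2.01, 1.67 and 2.22 FPKM with si-NC and 3.29, 3.06 and 3.97 FPKM with si-circCpsf6 (limma adjusted p = 0.101). Pkp4, a relative of p120, read 8.41 ± 0.627 and 11.4 ± 1.32 FPKM (limma adjusted p = 0.161). Ctnnb1, Ctnna1 and Ctnnd1, named for their role, had overlapping groups. Ctnnb1, beta-catenin, read 85.5 ± 9.39 and 74.3 ± 6.87 FPKM, Ctnna1 35.1 ± 7.28 and 32.4 ± 3.09 FPKM, and Ctnnd1, p120, 20.7 ± 1.13 and 17.6 ± 2.77 FPKM. Of the 7 listed repressors of cadherin genes 3 were tested and none passed by limma or at an unadjusted p under 0.05. Zeb2 read 2.88 ± 0.275 and 3.99 ± 0.794 FPKM, Tcf3 10.9 ± 2.25 and 10.8 ± 0.196 FPKM and Zeb1 7.04 ± 1.22 and 7.15 ± 1.57 FPKM, all with overlap.

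Of 28 integrin ligands 16 were tested, 10 of them above 0 and 6 below, with a median log2 fold change of 0.27. Madcam1, the endothelial ligand of the alpha 4 beta 7 integrin, passed, where 0.902% of all tested genes were called higher and 0.786% lower. It entered the test through its si-NC values alone, since its mean with si-circCpsf6 was 0.287 FPKM. It read 1.81, 1.67 and 3.10 FPKM with si-NC and 0.53, 0.08 and 0.25 FPKM with si-circCpsf6, and fell by 1.30 ± 0.23 on the log2 scale (limma adjusted p = 0.0453). It was not called without any single library (limma adjusted p = 0.0581 to 0.175) or with the replicate number as a block (0.0712). Nor was it called with no filter or a pseudocount of 0.1 (limma adjusted p = 0.1315 and 0.064). Over all limma alternatives its adjusted p ran from 0.0236 to 0.175. Its receptor chains Itga4 and Itgb7 were both under 1 FPKM in every library. At an unadjusted p under 0.05 by limma, 5 ligands were higher and 1, Madcam1, was lower, beside 10.2% and 10.1% of tested genes. None of the 5 higher ligands passed after adjustment. These were Fn1, Col4a2, L1cam, Fbn1 and Npnt, named after their values were seen, and the groups did not overlap in any of them. Fn1, fibronectin, read 25.8, 17.5 and 16.1 FPKM with si-NC and 51.1, 36.4 and 95.5 FPKM with si-circCpsf6 (log2 fold change 1.49 ± 0.34, limma adjusted p = 0.0757). Col4a2, a collagen IV chain, read 46.8, 75.7 and 43.3 FPKM with si-NC and 103, 144 and 97.8 FPKM with si-circCpsf6 (log2 fold change 1.07 ± 0.25, limma adjusted p = 0.0757). L1cam, a neural adhesion molecule, read 44.3 ± 10.2 and 69.7 ± 6.23 FPKM (limma adjusted p = 0.103). Fbn1, fibrillin, read 1.14 ± 0.437 and 3.52 ± 0.869 FPKM (limma adjusted p = 0.0573). Npnt, nephronectin, read 0.45 ± 0.201 and 2.26 ± 1.12 FPKM (limma adjusted p = 0.0943), and it entered the test through its si-circCpsf6 values. Over the ligand list 6 were apart and higher and 2 apart and lower, where 12.8% and 14.0% of tested genes were. Of the tested laminin chains, Lama4 was apart and lower, at 19.4 ± 1.79 and 16.1 ± 1.09 FPKM. Groups overlapped in Lamc1 (29.1 and 28.4 FPKM), Lama5 (3.67 and 7.63 FPKM) and Lamb2 (5.08 and 5.86 FPKM).

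Among 96 further genes of the cadherin superfamily (protocadherins, desmosomal cadherins, Fat, Celsr and others) 22 were tested and none passed by limma. At an unadjusted p under 0.05 by limma 2 were higher and 2 lower, beside 10.2% and 10.1% of tested genes. Their median log2 fold change was 0.11. List medians here cover tested genes alone, including those such as Itga2, Itgb4, Npnt, Pcdhb10 and Madcam1 that entered through 1 group. Dchs1 read 7.74 ± 0.496 and 11.6 ± 1.54 FPKM with si-NC and si-circCpsf6 (limma adjusted p = 0.1). Pcdhac2 read 8.44 ± 0.923 and 4.14 ± 1.28 FPKM (limma adjusted p = 0.0757). The other 2, named after their values were seen, were Pcdhb10, at 0.873 and 1.60 FPKM on average, and Clstn3, at 10.9 and 8.39 FPKM (limma adjusted p = 0.177 and 0.198). Pcdhb10 entered the test through its si-circCpsf6 values. Clustered protocadherins such as Pcdhac2 can share exons, so their values are uncertain.

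**Figure D5:**
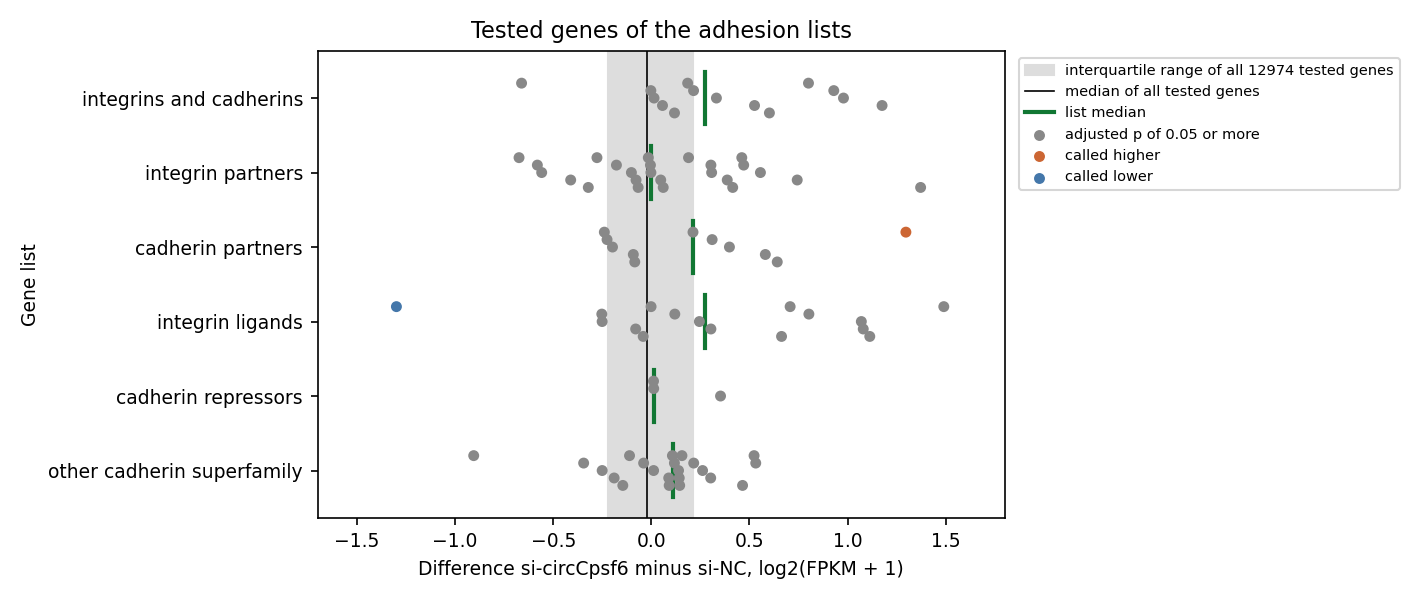
Difference between si-circCpsf6 and si-NC on the log2(FPKM + 1) scale for each tested gene (points, spread vertically for view) of 6 lists, with list medians in green and the interquartile range of all 12974 tested genes in grey. Jup (called higher) and Madcam1 (called lower) are the coloured points, and no integrin or cadherin is coloured.

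In the 3′ untranslated regions (UTRs) of the 14 expressed members the heptamer GCAGAAT, which earlier work on these same libraries had picked from genes that were lower in si-circCpsf6, was not found. The search used the longest annotated 3′ UTR, 312 bases in Itgb4 to 6994 bases in Itga1. The heptamer stood in 10.2% of 10630 tested genes with a 3′ UTR of at least 50 bases. In Cdh22, the member that read lower, the 3′ UTR searched had 651 bases. Whether the heptamer bears on the level of any member was not tested.

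The identity of the cells was checked by markers. All 8 sympathoadrenal neuroblast markers read here were expressed, summing to 499 to 558 FPKM with si-NC and 311 to 384 FPKM with si-circCpsf6. The list did not move as 1: Chga, the secretory granule protein chromogranin A, held most of the gap, at 226, 226 and 249 FPKM with si-NC and 99.2, 95.03 and 136 FPKM with si-circCpsf6. Chga fell by 1.10 on the log2 scale (limma adjusted p = 0.0335), and it was not called with no filter (0.0992), with the replicate block (0.0615) or without any single library (0.0516 to 0.16). The groups also stood apart, lower in si-circCpsf6, in the transcription factor genes Hand2 (167 and 120 FPKM on average with si-NC and si-circCpsf6) and Phox2a, which did not pass (limma adjusted p = 0.0974 and 0.105). Groups overlapped in Gata3 (6.64 and 8.51 FPKM), Stmn2 (32.1 and 38.5 FPKM) and Th (3.90 and 3.81 FPKM). Dbh (5.43 and 1.89 FPKM) and Isl1 (15.1 and 11.9 FPKM) were lower on average in si-circCpsf6, with overlap too. The log2 fold change of Dbh was -1.29 (limma unadjusted p = 0.0441, adjusted p = 0.233). In bulk RNA, fewer cells of a type and less RNA per cell cannot be told apart. The 7 epithelial markers, relevant to Itga3, Itga6, Itgb4 and Jup, summed to 0.52 to 0.71 FPKM with si-NC and 1.09 to 1.41 FPKM with si-circCpsf6. Nearly all of this was Krt8, while Epcam did not exceed 0.05 FPKM and Krt5, Krt14 and Krt18 were listed at 0. The 8 fibroblast markers summed to 2.61 to 10.6 FPKM with si-NC and 5.53 to 11.6 FPKM with si-circCpsf6. Of these, Pdgfrb, a growth factor receptor of fibroblasts and pericytes, read 1.57, 1.45 and 0.35 FPKM with si-NC and 4.31, 4.24 and 4.88 FPKM with si-circCpsf6, and rose by 1.42 on the log2 scale (limma adjusted p = 0.0455). It was not called with no filter (0.141), a pseudocount of 0.1 (0.0787), the replicate block (0.0746) or any single library left out (0.0858 to 0.133). Pdgfra read 0.4, 0.6 and 0.26 FPKM with si-NC and 0.85, 0.62 and 0.76 FPKM with si-circCpsf6, higher without overlap but too low to be tested. The defining collagen genes Col1a1, Col1a2 and Col3a1 overlapped between the groups, as did Dcn, and Lum and Thy1 read at most 0.20 and 0.07 FPKM. Endothelial markers summed to 2.93 to 3.57 and 1.82 to 4.19 FPKM, leukocyte markers to 1.13 to 1.57 and 0.98 to 1.18 FPKM, and Schwann and glial markers to 0.83 to 1.27 and 0.36 to 0.67 FPKM, with si-NC and si-circCpsf6. The endothelial sum held opposite moves. Vwf read 2.39, 1.9 and 2.1 FPKM with si-NC and 0.74, 0.23 and 1.1 FPKM with si-circCpsf6 (limma adjusted p = 0.0858), and it entered the test through its si-NC values. Tek read 0.21, 0.14 and 0.15 FPKM and then 0.42, 0.92 and 1.47 FPKM, while Pecam1 overlapped. The part of these shifts in the integrin values was not tested. Cpsf6, the host gene of the circle, read 14.6 ± 0.56 FPKM with si-NC and 13.4 ± 2.40 FPKM with si-circCpsf6 (limma adjusted p = 0.688), a value per gene that does not measure the circle.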

How the data were processed

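RNA of 6 N2A libraries was sequenced on an Illumina platform, and the authors deposited 1 table with a value per gene and library. Per the file headers, these values are FPKM, here found to be rounded to 2 decimals. The deposited table also gives the authors' fold change as a ratio, its log2, p-values and q-values. Bowtie 0.12.2 and the genome builds mm8 and mm9 appear in the submitters' processing notes, with no role stated. The labels' protocols name a small RNA kit and say nothing of strand. Fragments per gene are not known: at best totals 29.7% to 34.3% of low values were whole multiples of 1 fragment within 0.1 (best totals 14300000 to 18800000), so no count test was run.

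Sample titles gave the groups. Genes whose mean reached 1 FPKM were tested with limma 3.58.1 (R 4.3.3) on log2(FPKM + 1), group as the only term, with an intensity trend and Benjamini-Hochberg adjustment. Fold changes on this scale understate changes of low genes. On simulated data for this comparison (12974 genes, 200 changed), 50% of 2-fold and 86% of 4-fold changes in FPKM + 1 were recovered. For low genes these are larger changes in FPKM itself. All 49 members were found in GENCODE M21 (GRCm38), which gave positions and UTRs. Python 3.11.15 was used for sequences and figures.

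Members and lists were chosen with earlier results of these data known. Expressed members are named, with up to 4 called genes of each other list, or the 2 with the smallest p. Alternatives were 2 scalings, another pseudocount, 3 filters, no trend, a replicate block, the authors' q-values and leaving out each library. Of the cell type markers, 1 is not reported here.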

Additional observations from a re-analysis of the deposited data

How the results depend on the processing

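No integrin or cadherin was called higher or lower in any limma fit listed here, with any library left out or with the replicate block. Several of these fits called few genes of any kind. Over all tested genes 117 were called higher and 102 lower in the main fit, and 6 and 5 with the block. With a library left out 1 to 43 were called higher and 2 to 44 lower. With the authors' q-values 4 members were called higher, among them Itga2 and Itgb4, which had entered through their si-circCpsf6 values. The count of expressed members was 14 at a mean of 1 FPKM and 5 at a mean of 5 FPKM. Adhesion partners called numbered 1, and 0 with no filter or the replicate block, 4 by the authors' q-values and 0 to 1 with a library left out. Integrin ligands called numbered 1, and 2 under median centring, 4 among protein-coding genes alone and 5 by the authors' q-values. They numbered 0 with a library left out, no filter, a mean of 5 FPKM, the replicate block or a pseudocount of 0.1. Calls over all genes rose as well where the list counts rose. They were 155 higher and 106 lower under median centring, and 245 and 192 of 10776 among protein-coding genes alone. By the authors' q-values they were 418 and 297 of 12974. Values near 0 turned sign: Itga1 to 0.0134 under median centring and 0.0162 under quantile normalization, and Itgal to -0.0018 under quantile normalization. With a library left out the log2 fold change ran from -0.22 to 0.23 for Itga1, -0.056 to 0.069 for Itgal, -0.074 to 0.22 for Itgb3, -0.0036 to 0.23 for Cdh15 and -0.19 to 0.37 for Cdh24. The 7 members with groups apart kept their direction in all fits, as groups that do not overlap must when a library is left out. Same-numbered libraries had residual correlations of 0.103, 0.129 and 0.084, so the numbers were not taken as pairs, though each library correlated best with its own number. Counting error at low FPKM is unknown.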
